A study of Mus musculus with 10 samples.

Results

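The G1 cyclins and their kinases are 8 genes, the D-type cyclins Ccnd1, Ccnd2 and Ccnd3, the E-type cyclins Ccne1 and Ccne2, and the kinases Cdk2, Cdk4 and Cdk6. They were chosen by name among the 18193 genes with a probe set of exactly 1 gene symbol on the array, and for each gene the brightest of its probe sets on average over the 10 arrays was used. All 8 passed the filter on low signals, exceeding the median signal of the table on 10 of 10 arrays, and stand among 11472 genes tested. The arrays hold total RNA of primary B-cell lymphoma cells from the lymph nodes of Emu-myc;Suv39h1-/- mice, 5 arrays of cells given the DNA-damaging drug Adriamycin (ADR, also called doxorubicin) in culture, 5 days at 0.05 µg/ml, and 5 arrays of untreated cells. Lymphoma_1032, lymphoma_4936, lymphoma_5783, lymphoma_7890 and lymphoma_9250 gave 1 array per condition each. Both groups carry the Emu-myc transgene, which drives Myc in the B-cell lineage, lack Suv39h1, a histone H3 lysine 9 methyltransferase, and carry a retroviral Bcl2, an inhibitor of apoptosis, after puromycin selection. Both also grew on irradiated NIH 3T3 fibroblasts as feeder, whose RNA can be part of a sample. There is no Suv39h1-proficient group among these samples.

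Cells leave G1 when cyclin-dependent kinases phosphorylate the retinoblastoma protein and its relatives, which frees E2F transcription factors to switch on genes of DNA replication. D-type cyclins form kinases with Cdk4 and Cdk6 and link this step to growth signals, while E-type cyclins activate Cdk2 later in G1 and are themselves E2F targets. Mature B cells depend mainly on cyclins D2 and D3, and Ccnd2 and Cdk4 are known targets of Myc. The comparison of ADR with untreated cells asks what the DNA-damaging drug does to these transcripts in lymphomas without Suv39h1, since ADR drives Bcl2-protected Emu-myc lymphomas with Suv39h1 into senescence, a lasting arrest of the cell cycle.

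RefSeq promoter windows (GRCm38.p6) were listed for 5 of the 8 genes, Ccnd3, Ccne1, Cdk2, Cdk4 and Cdk6, and the 250 bases before each start were searched on both strands for the Myc and Max word CACGTG, which reads the same on either strand, and for the E2F words TTTCCCGC, TTTGGCGC, TTTCGCGC and TTTGCCGC. The windows of the 3 kinases are shown because they alone among these 5 genes held a match, and capitals mark the matches, which do not overlap. Cdk4 is at chr10:127063285-127063534 on the plus strand, Cdk6 at chr5:3343643-3343892 on the plus strand and Cdk2 at chr10:128705052-128705301 on the minus strand.
Cdk4: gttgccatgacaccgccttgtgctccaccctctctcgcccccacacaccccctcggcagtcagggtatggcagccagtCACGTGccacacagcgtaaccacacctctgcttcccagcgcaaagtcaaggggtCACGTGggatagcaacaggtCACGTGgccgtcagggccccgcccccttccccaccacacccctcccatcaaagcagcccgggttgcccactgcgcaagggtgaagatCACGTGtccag
Cdk6: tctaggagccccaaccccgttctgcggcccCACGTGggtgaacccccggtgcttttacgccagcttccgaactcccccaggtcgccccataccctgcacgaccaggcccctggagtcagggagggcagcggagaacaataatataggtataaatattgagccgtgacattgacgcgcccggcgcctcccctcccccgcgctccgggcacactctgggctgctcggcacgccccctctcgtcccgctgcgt
Cdk2: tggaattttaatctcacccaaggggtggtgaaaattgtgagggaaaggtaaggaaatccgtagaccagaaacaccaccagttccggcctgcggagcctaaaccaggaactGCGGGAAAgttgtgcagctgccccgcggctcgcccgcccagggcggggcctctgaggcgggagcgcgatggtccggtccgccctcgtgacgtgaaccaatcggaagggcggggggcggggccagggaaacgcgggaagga
The Cdk4 window held the word CACGTG 4 times, beginning 172, 118, 98 and 11 bases before the start. At least 1 such word was found in 6.02% of all 32851 promoter windows of that length, and at least 4 in 0.0213%. Cdk6 held it 1 time, 220 bases before the start that this window belongs to, which lies inside the annotated gene, downstream of its outermost start. Cdk2 held 1 E2F word, TTTCCCGC read on the opposite strand, 140 bases before the start, and 1.86% of all windows held at least 1 of the E2F words. A match describes the sequence and does not show that a factor binds there.

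Levels are log2 signals of the array, and a change is the log2 difference of ADR minus untreated within a lymphoma. The array medians lay between 4.43 and 4.50 except on the ADR array of lymphoma_1032, at 4.15, so results are also given without this lymphoma where that matters. The B-cell genes Cd79a and Cd79b, parts of the B-cell receptor, had mean signals of 9.81 and 11.10 in ADR cells and of 9.91 and 11.01 in untreated cells. Of 8 tested B-cell markers 3 were higher and 5 lower on average, with 0 past the threshold. The lymphomas differed in this: all 8 were lower with ADR in lymphoma_1032, with a mean change of -0.72. In lymphoma_9250 all 8 were higher, with a mean change of 0.46. In lymphoma_5783 3 were higher and 5 lower, in lymphoma_7890 6 and 2, and in lymphoma_4936 2 and 6. Macrophage and fibroblast markers were also measured: of 15 macrophage markers 11 had higher and 4 had lower mean signals with ADR, and of 19 fibroblast markers 14 had higher and 5 lower. The 10 macrophage markers that passed the filter on low signals were all higher on average, and of the 5 that did not pass it 4 were lower, the complement genes C1qa, C1qb and C1qc and the mannose receptor gene Mrc1, which are named after their values were seen. None of the tested markers passed the threshold, and none of all genes tested did. Before adjustment, 4 of the 10 tested macrophage markers and 6 of the 12 tested fibroblast markers had p below 0.05 in limma. This compares with 8.48% of all genes tested, and with 0 of the tested B-cell and T-cell markers. Among these markers Col1a1 was lower with ADR and the others were higher. The summed linear signal of the 15 macrophage markers ranged over 1151 to 34548 in ADR and 829 to 20027 in untreated arrays, and that of the 19 fibroblast markers over 815 to 5537 in ADR and 765 to 2834 in untreated arrays. Lum in the fibroblast list and Cd163 in the macrophage list were above the table median on no array. Of 5 tested T-cell markers 1 was higher and 4 were lower, and of 7 neutrophil markers 0 passed the filter. Of these 7, 2 had higher and 5 had lower mean signals with ADR. S100a8 was higher with ADR in 5 of 5 lymphomas. It was at 11.43 in ADR and 9.08 in untreated cells of lymphoma_1032, and at 5.97 and 3.23 in those of lymphoma_5783. In a mixed sample fewer cells of a type and less RNA per cell cannot be told apart.

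With ADR, Ccnd2 and Ccnd1 had higher signals in 4 of 5 lymphomas, Cdk2 had lower signals in 5 of 5, and Ccne2 in 4 of 5, but none of the 8 genes passed the test. In limma fitted with the lymphoma as a block, 0 of 8 had a Benjamini-Hochberg adjusted p below 0.05, against 0 of all 11472 genes tested (0%), whose lowest adjusted p was 0.551. Before adjustment 3 of the 8 genes had p below 0.05, Ccnd2 and Ccnd1 higher and Cdk2 lower, beside 973 of all genes tested (8.48%), of which 3.97% of genes were higher and 4.52% lower. The count of 3 fell to 1, Ccnd2, without lymphoma_1032 and likewise without lymphoma_5783, and to 0 without both. It was 2 without lymphoma_7890, and 4 without lymphoma_4936, where Ccne2 joined. Of the 8 genes 5 had 1 sign in at least 4 lymphomas, against 46.3% of all genes tested. On average 5 of the 8 were higher and 3 lower with ADR, where 44.8% of all genes tested were higher. The median change of the 8 was 0.11, against -0.02 over all genes tested. Their ADR and untreated arrays overlapped for all 8 genes, as for all but 0.357% of the genes tested.

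**Figure D1:**
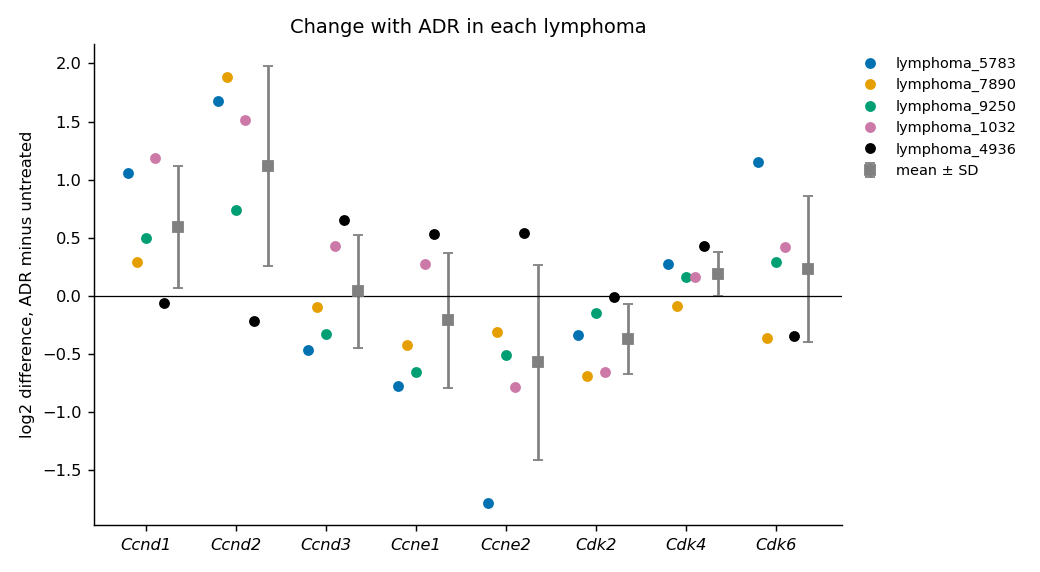
Log2 difference of ADR minus untreated (y axis) for each G1 cyclin and kinase gene (x axis), with 1 point per lymphoma and the mean ± SD of 5 lymphomas as grey squares. The points of Ccnd2 run from -0.22 to 1.88 and those of Cdk4 from -0.09 to 0.43, and lymphoma_4936 lies above 0 for Ccnd3, Ccne1, Ccne2 and Cdk4.

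Cyclin D2 is the D-type cyclin that B cells induce on mitogenic stimulation, and its transcript had the largest mean change of the 8 genes. Ccnd2 had signals of 10.72 in lymphoma_1032, 9.92 in lymphoma_4936, 9.83 in lymphoma_5783, 7.31 in lymphoma_7890 and 7.41 in lymphoma_9250 with ADR, against 9.20, 10.14, 8.16, 5.43 and 6.67 in the untreated cells of these lymphomas, in the same order. The signal was higher with ADR in every lymphoma but lymphoma_4936, which had the highest untreated signal. The mean was 9.04 ± 1.57 in ADR and 7.92 ± 1.90 in untreated cells (SD, n = 5), a change of 1.12 ± 0.86, or 2.17-fold, with adjusted p = 0.565 in limma. A mean change of at least 1 on the log2 scale was reached by 1 of the 8 genes, Ccnd2, and by 0.462% of all genes tested. Without lymphoma_4936 the Ccnd2 change was 1.45 with adjusted p = 0.153 in limma, and over the alternatives the adjusted p of Ccnd2 in limma ranged over 0.153 to 1.00.

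Ccnd2 has 7 probe sets on the array, and their mean changes ran between 0.47 and 1.49. In lymphoma_4936 all 7 were lower with ADR, with changes between -0.28 and -0.03, and in lymphoma_5783 and lymphoma_1032 all 7 were higher. The smallest mean change, 0.47, belonged to the dimmest probe set, with a mean signal of 4.30. The largest, 1.49, belonged to the next dimmest, with a mean signal of 4.70. The brighter probe sets had mean changes between 1.06 and 1.21. In lymphoma_7890 the dimmest probe set had a change of 0.01, where the other 6 had changes of 1.45 to 2.17. In lymphoma_9250 the probe set used had the largest change, 0.74, and the others ran from -0.21, for the dimmest, to 0.65.

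**Figure D2:**
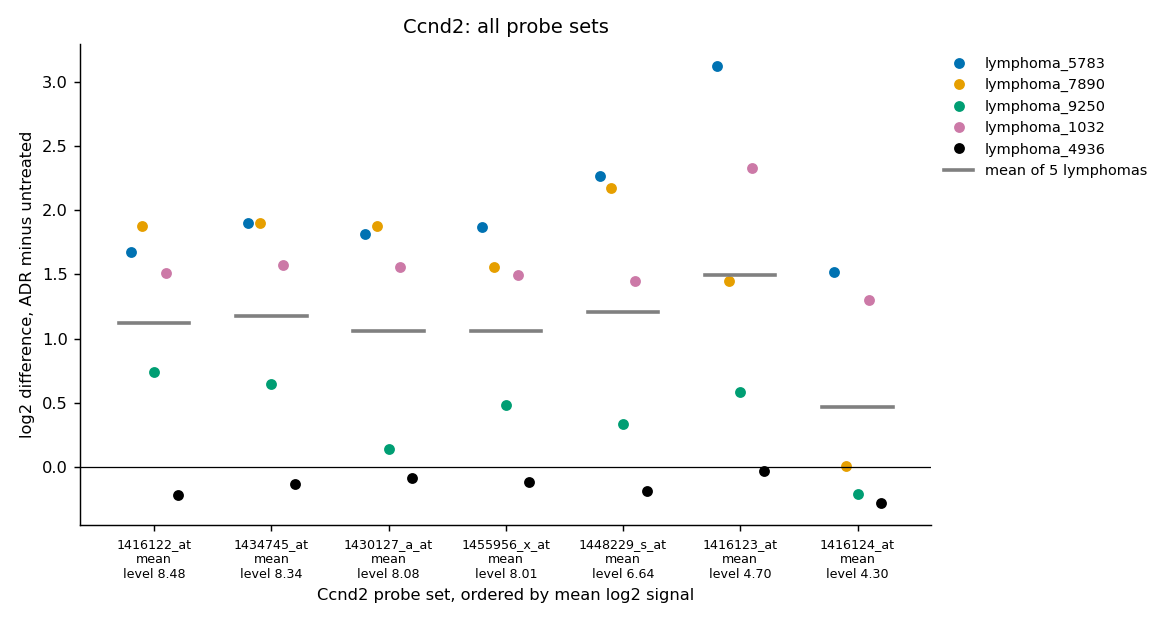
Log2 difference of ADR minus untreated (y axis) for the 7 Ccnd2 probe sets, ordered from the highest to the lowest mean log2 signal (x axis), with 1 point per lymphoma and a grey bar at the mean of 5 lymphomas. The means lie between 0.47 and 1.49, and lymphoma_4936 is below 0 in every probe set.

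Cyclin D1, which most B cells express little of and fibroblasts express strongly, had a smaller difference. Ccnd1 had signals of 8.94 in lymphoma_1032, 8.46 in lymphoma_4936, 9.53 in lymphoma_5783, 9.10 in lymphoma_7890 and 9.31 in lymphoma_9250 with ADR, against 7.76, 8.52, 8.47, 8.80 and 8.81 in the untreated cells of these lymphomas, in the same order. All ADR signals but that of lymphoma_4936 lay above the highest untreated signal, 8.81. The mean was 9.07 ± 0.40 in ADR and 8.47 ± 0.43 in untreated cells (SD, n = 5), a change of 0.60 ± 0.52 with adjusted p = 0.565 in limma. Its 3 probe sets had mean changes between 0.52 and 0.64. In lymphoma_7890 the probe set used had a change of 0.29 and the others of 0.09 and 0.0036. The largest differences were in lymphoma_1032, 1.19, and lymphoma_5783, 1.06, where the 19 fibroblast markers had mean changes of 0.40 and 0.66 and the 15 macrophage markers of 0.53 and 0.26. In lymphoma_7890, lymphoma_9250 and lymphoma_4936 the fibroblast markers had mean changes of -0.02, 0.03 and 0.15 and the macrophage markers of -0.01, -0.10 and 0.16, beside Ccnd1 changes of 0.29, 0.50 and -0.06. The markers were mixed in direction: in lymphoma_5783, 15 fibroblast markers were higher and 4 lower, and 10 macrophage markers were higher and 5 lower. There the 10 tested macrophage markers had a mean change of 1.30 and the 5 others of -1.83, with Mrc1 at 4.70 in ADR and 7.64 in untreated cells. Without lymphoma_5783 and lymphoma_1032 the mean change of Ccnd1 was 0.24 and that of Ccnd2 0.80. The part of feeder or macrophage RNA in the Ccnd1 signal was not tested.

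**Figure D3:**
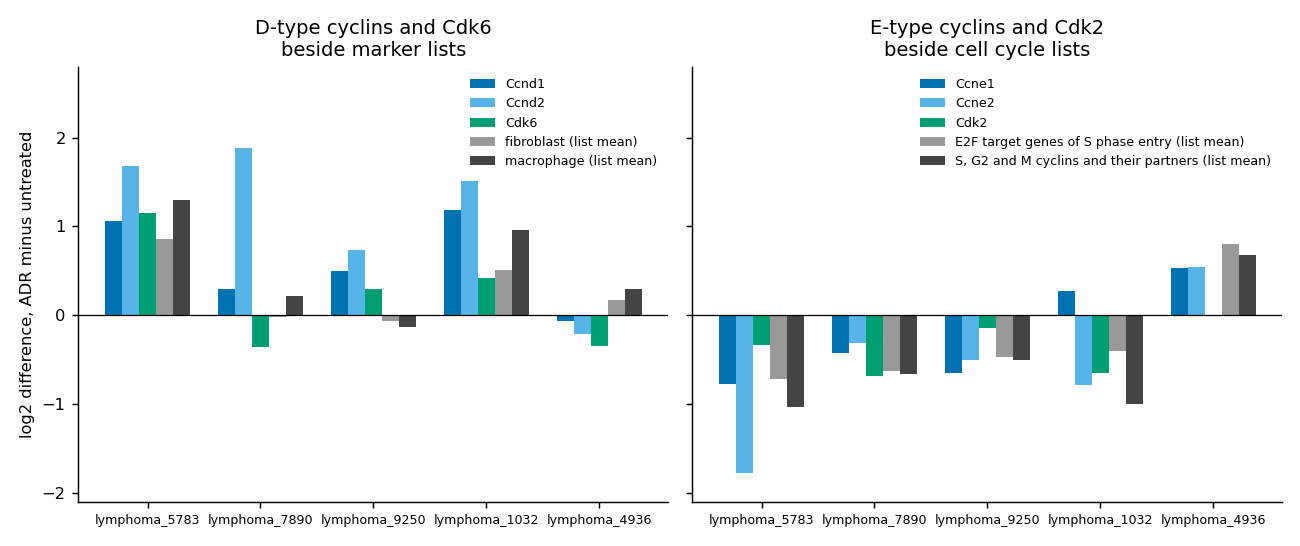
Log2 difference of ADR minus untreated (y axis) in each lymphoma (x axis) for single genes, in colour, beside the mean of the tested genes of a list, in grey. In the left panel the tested fibroblast and macrophage markers are highest in lymphoma_5783 and lymphoma_1032, although all 15 macrophage markers average 0.26 in lymphoma_5783, while Ccnd2 is highest in lymphoma_7890; in the right panel the 2 cell cycle lists are above 0 only in lymphoma_4936, as is Ccne2.

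Cyclin D3, the D-type cyclin needed for expansion of pre-B and germinal centre B cells, had no common direction. Ccnd3 had signals of 9.20 in lymphoma_1032, 7.64 in lymphoma_4936, 8.22 in lymphoma_5783, 8.17 in lymphoma_7890 and 8.10 in lymphoma_9250 with ADR, against 8.77, 6.99, 8.68, 8.26 and 8.43 in the untreated cells of these lymphomas, in the same order. It was higher with ADR in lymphoma_1032 and lymphoma_4936 and lower in the other lymphomas. Its mean change was 0.04 ± 0.48 (SD, n = 5), adjusted p = 0.961 in limma. The mean turned to -0.06 without lymphoma_1032 and to -0.11 without lymphoma_4936. Its other probe sets, with mean signals of 5.46 and 4.28, had mean changes of -0.39 and 0.41, so the 3 probe sets disagreed in direction.

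Cdk4, whose window with 4 CACGTG words is printed above, was by the probe set used among the genes that differed least between the ADR arrays. It had signals of 10.08 in lymphoma_1032, 10.06 in lymphoma_4936, 10.08 in lymphoma_5783, 10.20 in lymphoma_7890 and 10.38 in lymphoma_9250 with ADR, against 9.92, 9.63, 9.81, 10.29 and 10.21 in the untreated cells of these lymphomas, in the same order. The ADR signals spanned 0.33 and the untreated signals 0.66. The SD over the ADR arrays was larger than in only 6.03% of the genes tested, and that over the untreated arrays larger than in 36.4%. The change was 0.19 ± 0.19 (SD, n = 5), higher in 4 of 5 lymphomas, with adjusted p = 0.644 in limma. Its 3 probe sets had mean changes between 0.19 and 0.29. The probe set used carries the suffix _x_at, by which Affymetrix marks probes that can match other transcripts, and the other probe sets gave the same direction of the mean. Their ADR signals were spread more widely, from 9.72 to 10.23 and from 9.07 to 9.61.

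Cdk6, the second partner of the D-type cyclins, differed in direction between lymphomas. Its signals were 9.21 in lymphoma_1032, 8.82 in lymphoma_4936, 9.39 in lymphoma_5783, 8.36 in lymphoma_7890 and 9.10 in lymphoma_9250 with ADR, against 8.79, 9.17, 8.23, 8.72 and 8.80 in the untreated cells of these lymphomas, in the same order. The change was 0.23 ± 0.63 (SD, n = 5) with adjusted p = 0.761 in limma. It rested on lymphoma_5783, where Cdk6 was higher by 1.15, and without this lymphoma the mean change was 0.0028. Without both lymphoma_5783 and lymphoma_1032 it was -0.14. The dimmest of its 3 probe sets, with a mean signal of 4.41, had a mean change of -0.20, against 0.27 for the other one not used.

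The E-type cyclins and Cdk2, which act together at the entry into S phase, had lower mean signals with ADR. Ccne2 had signals of 7.21 in lymphoma_1032, 7.68 in lymphoma_4936, 6.38 in lymphoma_5783, 7.82 in lymphoma_7890 and 7.73 in lymphoma_9250 with ADR, against 7.99, 7.15, 8.16, 8.13 and 8.23 in the untreated cells of these lymphomas, in the same order. It was lower in 4 lymphomas and higher by 0.54 in lymphoma_4936. Its mean change was -0.57 ± 0.84 (SD, n = 5), adjusted p = 0.602 in limma. The mean change was -0.27 without lymphoma_5783, where Ccne2 had a change of -1.78, -0.09 without lymphoma_5783 and lymphoma_1032 together, and -0.85 without lymphoma_4936. It has 1 probe set.

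Ccne1 had signals of 8.18 in lymphoma_1032, 7.17 in lymphoma_4936, 6.89 in lymphoma_5783, 7.92 in lymphoma_7890 and 8.01 in lymphoma_9250 with ADR, against 7.91, 6.64, 7.66, 8.34 and 8.66 in the untreated cells of these lymphomas, in the same order. It was lower in 3 lymphomas and higher in lymphoma_1032, by 0.27, and lymphoma_4936, by 0.53. The mean change was -0.21 ± 0.58 (SD, n = 5) with adjusted p = 0.768 in limma, and it ranged between -0.39 without lymphoma_4936 and -0.07 without lymphoma_5783. The second probe set of Ccne1, which unlike the one used has no _x_at suffix, had a mean change of -0.05, with 1.21 in lymphoma_4936.

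Cdk2, the kinase partner of the E-type cyclins, was the one gene of the 8 with a lower signal in all 5 lymphomas, and 9.49% of all genes tested had 1 sign in all 5. Its signals were 7.91 in lymphoma_1032, 8.32 in lymphoma_4936, 8.14 in lymphoma_5783, 8.22 in lymphoma_7890 and 8.54 in lymphoma_9250 with ADR, against 8.57, 8.33, 8.48, 8.91 and 8.68 in the untreated cells of these lymphomas, in the same order. The difference in lymphoma_4936 was -0.01, and the others lay between -0.69 and -0.15. The mean was 8.23 ± 0.23 in ADR and 8.59 ± 0.22 in untreated cells (SD, n = 5), a change of -0.37 ± 0.30 with adjusted p = 0.565 in limma. A further Cdk2 probe set had signals of at most 2.72 and a mean change of 0.13, and the mean of both probe sets had a change of -0.12, with an unadjusted p of 0.333 in limma.

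**Figure D4:**
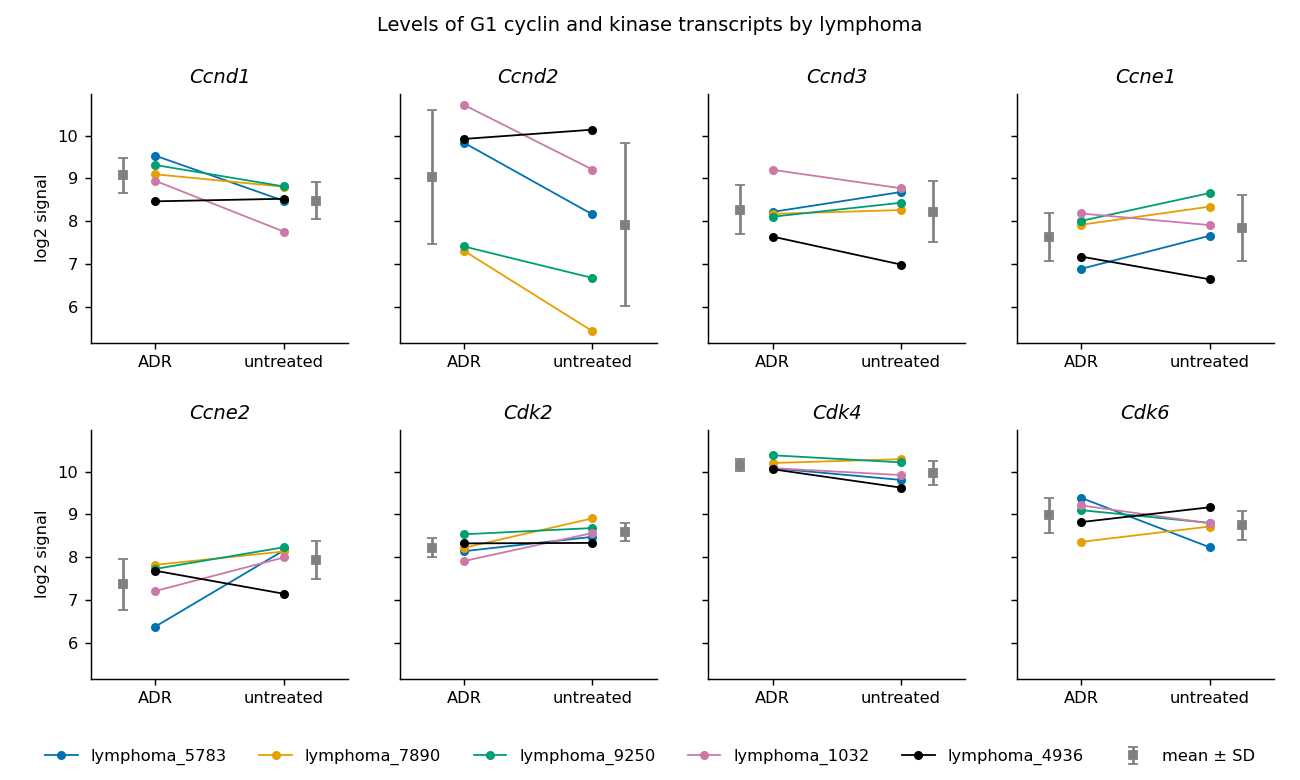
Log2 signal (y axis, shared by all panels) of each gene in ADR and untreated arrays (x axis), with a line joining the arrays of a lymphoma and the mean ± SD of 5 arrays as grey squares. Ccnd2 spans 7.31 to 10.72 in ADR and 5.43 to 10.14 in untreated arrays, while Cdk4 spans 10.06 to 10.38 in ADR and 9.63 to 10.29 in untreated arrays.

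The levels were also compared between the lymphomas themselves. In a moderated F test of limma on the lymphoma, with the treatment in the model, 2 of the 8 genes passed, Ccnd2 (adjusted p = 0.00538) and Ccnd3 (adjusted p = 0.0343), against 3089 of all genes tested (26.9%), so the share among the 8 was near that of all genes. Without lymphoma_1032 1179 genes passed, Ccnd2 among them (adjusted p = 0.0203) and Ccnd3 not (adjusted p = 0.109). Ccne1 had adjusted p = 0.0518 in the same test and Cdk4 adjusted p = 0.242. The SD of Ccnd2 over the untreated arrays was larger than in 98.8% of the genes tested, and over the ADR arrays larger than in 97.2%. Of the 7 Ccnd2 probe sets 6 passed when all probe sets were fitted, and of the 3 Ccnd3 probe sets 1.

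Lymphoma_4936 had the lowest untreated signal for 5 of the 8 genes, Ccnd3, Ccne1, Ccne2, Cdk2 and Cdk4, and the highest for Ccnd2 and Cdk6. With ADR it had the lowest signal for 3 of the 8, Ccnd1, Ccnd3 and Cdk4. The 22 tested E2F target genes of S phase entry differed on average by 0.80 in this lymphoma, against -0.71 in lymphoma_5783, -0.62 in lymphoma_7890, -0.47 in lymphoma_9250 and -0.41 in lymphoma_1032. Ccne2 had the sign of that list mean in all 5 lymphomas and Ccne1 in 4. A difference above 0 can come from a low untreated signal as well as from a high ADR signal. Most of the 22 targets, though not all, had their lowest untreated signal in lymphoma_4936. Among them Pcna was at 11.55 there, against 11.75 to 12.64 in the untreated cells elsewhere. Its ADR signal there was 11.98, against 11.46 to 12.06 elsewhere. Untreated Mybl2 and Slbp, at 6.58 and 10.25 in lymphoma_4936, were among the exceptions and were lowest in lymphoma_1032, at 5.81 and 10.03.

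The other genes of the pathway are given by lists, and 0 members of any list passed the test. Of the 6 tested CDK inhibitors 2 were higher and 4 lower on average, with a median change of -0.41. Cdkn1a, the p53-induced inhibitor p21, had a change of 0.60 ± 0.43 (SD, n = 5) and was higher in all 5 lymphomas. Cdkn2c, the Cdk4 and Cdk6 inhibitor p18, had a change of -0.54 ± 0.58, and Cdkn1b, the Cdk2 inhibitor p27, of -0.52 ± 0.61. Cdkn2a, the p16 and p19ARF locus, had a change of -0.56 ± 1.43, of which -3.01 was in lymphoma_5783.

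Of 13 tested pocket protein and E2F genes 5 were higher and 8 lower, with a median change of -0.19. E2f2, an activating E2F factor, had a change of -0.55 ± 0.51 (SD, n = 5) and was lower in all 5 lymphomas, and E2f4, a repressing one, had a change of -0.40 ± 0.36. Rb1, the retinoblastoma gene, had a change of 0.14 ± 0.42 and E2f1 of -0.19 ± 0.77. All 22 tested E2F target genes of S phase entry were lower on average, where 44.8% of all genes tested were higher. Their median change was -0.27, against -0.02 over all genes tested. In lymphoma_4936 the mean change of these targets was 0.80. Among them Slbp, which binds histone mRNA, had a change of -0.42 ± 0.31, Mybl2 of -0.51 ± 0.60 and the replication clamp Pcna of -0.27 ± 0.44.

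The 7 tested cyclins and partners of S, G2 and M were all lower on average as well, with a median change of -0.47. In lymphoma_4936 their mean change was 0.68. Ccna2, the cyclin A that takes over Cdk2 in S phase, had a change of -0.61 ± 0.82 (SD, n = 5), Ccnb2 of -0.73 ± 0.92 and Cdk1, the mitotic kinase, of -0.46 ± 0.77. Of 18 tested genes that activate or turn over G1 cyclin kinases 5 were higher and 13 lower, with a median of -0.03. In that list Cdk7, the kinase that activates other cyclin-dependent kinases, had a change of 0.34 ± 0.32, Wee1, which inhibits Cdk1 and Cdk2, of -0.35 ± 0.34 and Cdc37, a chaperone of Cdk4, of 0.21 ± 0.14.

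Of 22 tested other cyclins and cyclin-dependent kinases 9 were higher and 13 lower, with a median change of -0.03. Ccng1, a p53 target, had a change of 0.65 ± 0.49 (SD, n = 5), Cdk14 of 0.60 ± 0.62 and Cdk19 of -0.34 ± 0.22. Among 9 tested transcription regulators of D-type cyclin genes 5 were higher and 4 lower, with a median of 0.12. Myc had a change of 0.35 ± 0.44, the NF-kB subunit gene Rel of -0.59 ± 0.58 and Foxo3, a factor that restrains D-type cyclin genes, of 0.28 ± 0.34.

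**Figure D5:**
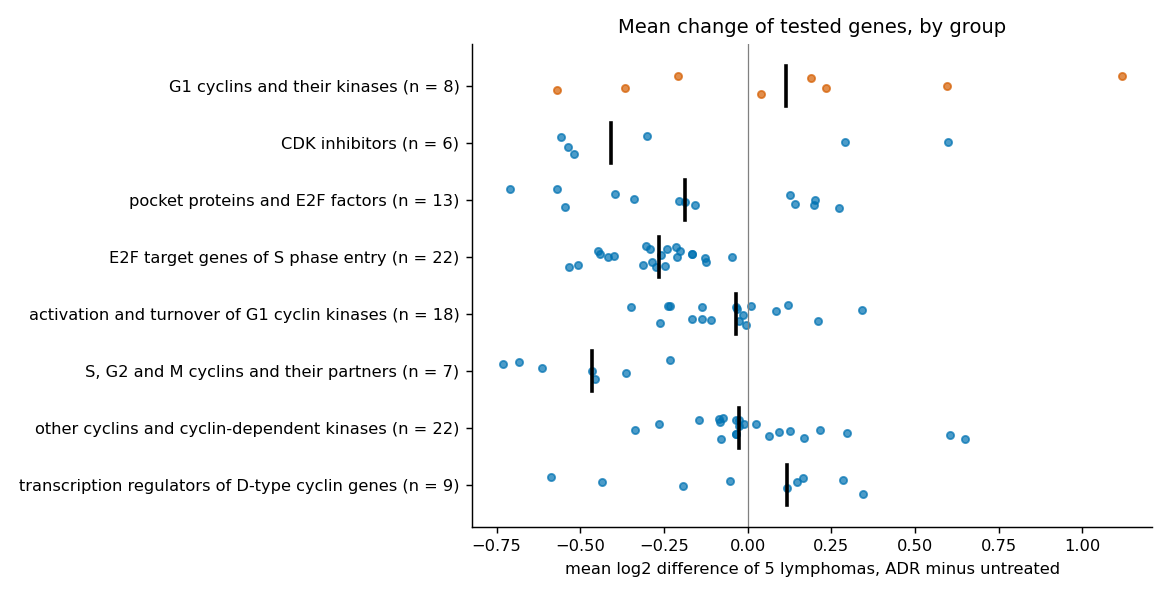
Mean log2 difference of 5 lymphomas, ADR minus untreated (x axis), with 1 point per tested gene in each row and a black bar at the row's median (points are spread vertically for display). The medians are 0.11 for the G1 cyclins and their kinases, -0.27 for E2F target genes of S phase entry and -0.47 for S, G2 and M cyclins and their partners.

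The genes whose levels followed a member most closely over the 10 arrays were ranked by Pearson's r among all genes tested, as a description, since the arrays come in pairs from 5 lymphomas. Nearest to Ccne2 were Bub1b (r = 0.98), Aurkb (r = 0.97) and Espl1 (r = 0.96), which encode a spindle checkpoint kinase, a mitotic kinase and separase. Nearest to Cdk2 were Nsd2 (r = 0.98), Slc36a2 (r = 0.91) and Eme1 (r = 0.91), and nearest to Ccne1 were Lsm11 (r = 0.97), Sf3b5 (r = 0.96) and Commd1 (r = 0.95). For Ccnd2 they were Notch1 (r = 0.95), which encodes a receptor of lymphocyte development, Rbis (r = 0.93) and Ap4b1 (r = 0.92). For Ccnd3 they were Fah, Vti1b and Tgfa (r of 0.97, 0.96 and 0.95). Ccnd1 and Cdk6 had less close neighbours, St13, Adprhl2 and Ndufb1 for Ccnd1 (r of 0.92, 0.91 and 0.88) and Micall1, Tstd2 and Dnmt3a for Cdk6 (r of 0.90, 0.82 and 0.81). Cdk4 was nearest to Faap24, Atg7 and Coq5 (r of 0.96, 0.96 and 0.94).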

How the data were processed

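Total RNA of 10 samples was measured on Affymetrix mouse expression arrays, and the deposited table holds log2 signals, 1 per probe set and array, for which the submitters' processing notes name RMA and Partek. Neither version nor log base is given in the sources used here; the base was read from the range of the values. No further normalization was applied. Of 45101 probe sets, 34945 carried a single gene symbol in the annotation of the platform, 932 carried several and 9160 were unnamed; 64 were controls. Of the single-symbol probe sets 34741 had a gene ID in the RefSeq table (GRCm38.p6). Genes above the table median, 4.43, on at least 5 of 10 arrays were tested.

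Changes were fitted with limma 3.58.1 (lmFit, eBayes) in R 4.3.3 with the lymphoma as a block, Benjamini-Hochberg adjustment over all genes tested and a threshold of 0.05, two-sided. Titles pair the samples by lymphoma; across genes, the 2 arrays of a lymphoma deviated together from their groups (r of 0.51 to 0.79), each of 5 pairs more than with other arrays. Differences between lymphomas were tested with limma's moderated F test in the same fit. The labels do not say whether each lymphoma came from a mouse of its own. The fit was tested on simulated data. Precision is limited by having 5 arrays per group. Named beside the 8 genes were at most 3 tested genes of each pathway list with the smallest unadjusted p, the fixed names Cdkn1a, Cdkn1b, Cdkn2a, Rb1, E2f1, Ccna2, Cdk1 and Myc, and the 3 tested genes with the highest Pearson r with each member; markers were named from the brightest of their lists or as fixed names. The members and lists were chosen with earlier results of these data known. Alternatives were no block, no filter, a filter at the 70th percentile, averaged probe sets, array weights, quantile normalization, centred arrays, a trended robust prior and the omission of each lymphoma; leaving out lymphoma_5783 and lymphoma_1032 together was chosen after seeing the data. Tables used Python 3.11.15 and pandas 2.3.3, plots matplotlib 3.10.9. Some genes of the lists had no named probe set and were not analysed here.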

Additional observations from a re-analysis of the deposited data

Results flagged for a closer look

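Of 24 sets of 5 values, the levels in ADR arrays, the levels in untreated arrays and the changes of the 8 genes, 2 had a value far from the others by Dixon's criterion at 95%, where chance gives about 1 in 20. Both were untreated signals of lymphoma_4936. Ccnd3 was at 6.99 there, and the nearest other untreated array was at 8.26. Ccne2 was at 7.15, and the nearest other was at 7.99.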

How the results depend on the processing

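Under all 14 alternatives 0 genes passed the ADR test, and the mean change kept its sign for Ccnd1, Ccnd2, Ccne1, Ccne2, Cdk2 and Cdk4. With no replicate block the changes were the same by construction and 0 genes passed, with 262 at an unadjusted p below 0.05 against 973 with it. The change of Ccnd3 was -0.061 with array weights and ran from -0.11 to 0.17 over the omissions of a lymphoma; that of Cdk6 was -0.14 without lymphoma_5783 and lymphoma_1032 together. In the F test between lymphomas, 1179 to 2796 genes passed when a lymphoma was left out, with fewer samples, and 758 without lymphoma_5783 and lymphoma_1032. Ccnd2 passed in all settings. Ccnd3 had adjusted p = 0.62 with averaged probe sets, 0.0548 under array weights, 0.143 without lymphoma_5783 and lymphoma_1032, and 0.0274 to 0.158 over the omissions of a lymphoma. Ccne1 passed with the stricter filter (adjusted p = 0.0389), quantile normalization (0.0477), centred arrays (0.0492), the trended prior (0.028) and array weights (0.0449). The causes were not tested. These p-values are from limma.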

Other observations

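Over the 10 arrays, which come in pairs from 5 lymphomas, Ccnd2 ran opposite to Cdk2 (Pearson's r = -0.79), Ccne2 (r = -0.68), Ccne1 (r = -0.65) and Cdk4 (r = -0.60), as a description. Cdk6 ran opposite to Ccne2 (r = -0.77) and with Ccnd2 (r = 0.51). Among the D-type cyclins the values were -0.15 for Ccnd2 and Ccnd1, -0.04 for Ccnd3 and Ccnd1, and -0.08 for Ccnd3 and Ccnd2.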
